A study of Mus musculus with 6 samples.

Results

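The miR-200 family and 2 further miRNAs of epithelial tissues, miR-203 and miR-205, were examined in vitrified and fresh mouse blastocysts. Every miRNA assay in the raw Ct table named for miR-200, miR-141, miR-429, miR-203 or miR-205 was taken, on either card and for any species, without the assays marked # for the opposite arm of a hairpin. This gave 9 of the 750 miRNA assays. Card A held mmu-miR-200a, mmu-miR-200b, mmu-miR-200c, mmu-miR-141, mmu-miR-429, mmu-miR-203 and mmu-miR-205, and card B held hsa-miR-200b and hsa-miR-200c, which carry human names. The target sequences of the assays are not given in the sources used here, so that the human-named assays are assigned to miR-200b and miR-200c by name only. A Ct, or threshold cycle, is the PCR cycle at which the fluorescence of a well crosses a set threshold. A higher Ct means less template, and 1 cycle is 1 unit on the log2 scale at ideal amplification.

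All embryos came from Kunming mice, a strain from China, mated after superovulation at 5 weeks of age. Blastocysts were taken from excised oviducts 92 to 94 hours after the hCG injection. The vitrified group was held for 30 seconds in 10% ethylene glycol with 10% dimethyl sulfoxide, then for 25 seconds in the vitrification solution EDFS30 in an open-pulled straw, and was plunged into liquid nitrogen and thawed by a rinse of 5 minutes in 0.5 M sucrose. The fresh group had no such treatment, and the culture medium named for the embryos was CZB. Survival after warming was judged at 18 to 20 hours, but the sources used here do not give the time from warming to RNA extraction. Each group had 3 pools of 300 blastocysts, named V1, V2 and V3 or F1, F2 and F3, and 30 ng of total RNA per pool was reverse transcribed and pre-amplified. The sources do not say that the pools came from separate matings or days, so a p-value here measures the spread between these pools. In whole embryos, a lower amount of a miRNA per cell and fewer cells that contain it cannot be told apart.

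The miR-200 family consists of miR-200a, miR-200b, miR-200c, miR-141 and miR-429. These miRNAs are abundant in epithelial cells, where they repress the transcription factors ZEB1 and ZEB2 and thereby keep up E-cadherin, and they are lost when epithelial cells turn into mesenchymal ones. miR-203 is known for limiting the division of keratinocytes, and miR-205 is typical of stratified epithelia. The first epithelium of the mouse embryo is the trophectoderm, the outer layer of the blastocyst, which attaches to the uterus.

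The mature sequences show why the miRNAs are treated as 1 family with 2 additional members. They were taken from RefSeq (GRCm38.p6) by miRNA name, which matched for all 7 miRNAs, and the 3p arm was taken for each of them other than miR-205, for which it was the 5p arm. The arm is the one by which the plain name was known when the cards were designed. The 5′ to 3′ sequences follow with the seed, bases 2 to 8, in capitals.
mmu-miR-200b: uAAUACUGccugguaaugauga
mmu-miR-200c: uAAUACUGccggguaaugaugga
mmu-miR-429: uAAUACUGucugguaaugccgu
mmu-miR-200a: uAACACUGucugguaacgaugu
mmu-miR-141: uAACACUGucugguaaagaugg
mmu-miR-203: gUGAAAUGuuuaggaccacuag
mmu-miR-205: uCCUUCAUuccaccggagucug

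The family falls into 2 seed groups that are separated by a single seed base. Counted from the 5′ end, miR-200a differs from miR-200b within the seed by U4C, and outside it by C9U, U17C and A22U. miR-200c differs from miR-200b by U11G and A22G over the length of miR-200b, and has 1 more base at its 3′ end. miR-141 differs from miR-200a by C17A and U22G. miR-429 differs from miR-200b by C9U, A19C, U20C and A22U, all outside the seed. The seeds of miR-203 and miR-205 are shared with no other member, and in RefSeq each is found in 1 of 1679 mature mouse miRNA names.

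The seed groups do not follow the genes. On GRCm38.p6, the genes of miR-200b, miR-200a and miR-429 lie together on the minus strand within 1846 bases, at chr4:156055681-156055750, chr4:156054896-156054985 and chr4:156053905-156053987, inside the annotated lncRNA gene Gm13648. The genes of miR-200c (chr6:124718322-124718390) and miR-141 (chr6:124717914-124717985) lie within 477 bases on the minus strand. Each cluster thus holds a miRNA of either seed group. The gene of miR-203 (chr12:112130880-112130955, plus strand) overlaps a miRNA gene annotated as Gm51289, and that of miR-205 (chr1:193507463-193507530, minus strand) lies within the lncRNA gene Mir205hg.

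A Ct was determined for 140 to 409 of the 750 miRNA assays per pool, and the 2 pools numbered 1 stood apart from the other pools. V1 had 218 determined assays and F1 had 140, against 382 to 409 in V2, V3, F2 and F3. The miR-290 to miR-295 miRNAs, which mark the early embryo and pluripotent cells, were covered by 14 assays. Of these 14, V1 and F1 had 0 determined, whereas V2, V3, F2 and F3 had 7 to 9. Whether V1 and F1 hold blastocyst RNA as labelled could not be settled from the files, and they are kept under their labels here. The order of levels, the fold changes of the members and the comparison of the cards are therefore also given without V1 and F1.

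The assays of miR-200a, miR-200b and miR-200c gave early Ct values in V2, V3, F2 and F3. Every assay examined other than that of miR-205 was determined in all 6 pools. Levels are given as ΔCt, the Ct after subtraction of the average over the 4 U6 snRNA wells that the card holds for that pool. The earliest assay was that of hsa-miR-200c on card B, with a raw Ct of 20.81 in V1, 20.81 in V2, 20.03 in V3, and, among fresh pools, 21.46 (F1), 20.26 (F2) and 19.93 (F3). It ranked between 4 and 7 among the determined miRNA assays of its card in every pool, from the lowest Ct upward. The vitrified and fresh values overlapped, and F1 was the latest of the 6 pools. On the same ranking by card, hsa-miR-200b ranged from 7 to 15, mmu-miR-200a from 15 to 26 and mmu-miR-200c from 3 to 31. The ranks 7 and 3 were those of V1, where fewer assays were determined. In V2, V3, F2 and F3, hsa-miR-200b ranged from 10 to 15 and mmu-miR-200c from 17 to 31. mmu-miR-200b ranged from 19 to 40, with rank 40 among the 88 assays determined on card A in F1.

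The other miR-200c assay, mmu-miR-200c on card A, had a raw Ct of 23.25 in V1, 22.44 in V2, 23.53 in V3, and 24.22 (F1), 22.22 (F2) and 21.74 (F3) in the fresh pools. For hsa-miR-200b on card B the raw Ct was 23.94 in V1, 23.47 in V2, 22.84 in V3, and 24.69 (F1), 23.03 (F2) and 22.72 (F3) in the fresh pools. In both assays the groups overlapped and F1 was again the latest pool.

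The remaining assays of the family separated V1 and F1 from the other pools more widely. mmu-miR-200a, which has the other seed, had a raw Ct of 26.37 in V1 and 27.14 in F1, against 22.67 in V2, 23.22 in V3, 22.31 in F2 and 21.49 in F3. mmu-miR-200b had 27.70 in V1 and 30.49 in F1, against 22.47 in V2, 23.27 in V3, 22.12 in F2 and 22.04 in F3. mmu-miR-141, the gene neighbour of miR-200c, had 29.97 in V1 and 31.36 in F1, against 24.42 in V2, 24.07 in V3, 23.10 in F2 and 23.95 in F3. In these 3 assays both pools numbered 1 lay later than every other pool, and F1 lay later than V1.

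mmu-miR-429 behaved otherwise, with a raw Ct of 26.40 in V1, 25.61 in V2, 27.44 in V3, and 29.24 (F1), 24.58 (F2) and 26.12 (F3) in the fresh pools. Here V1 lay among the other pools and F1 alone was late.

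Outside the family, mmu-miR-203 had a raw Ct of 30.20 in V1 and 30.55 in F1, against 25.31 in V2, 25.46 in V3, 24.76 in F2 and 25.36 in F3. mmu-miR-205 was undetermined in V1 and F1, and was at 32.74 in V2, 32.08 in V3, 30.97 in F2 and 30.997 in F3. Its Ct was the latest of the 9 in each of these 4 pools, where it ranked between 169 and 185 on its card. mmu-miR-203 ranked between 58 and 79 in the same 4 pools. It ranked 54 in V1 and 41 in F1, where fewer assays were determined.

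**Figure D1:**
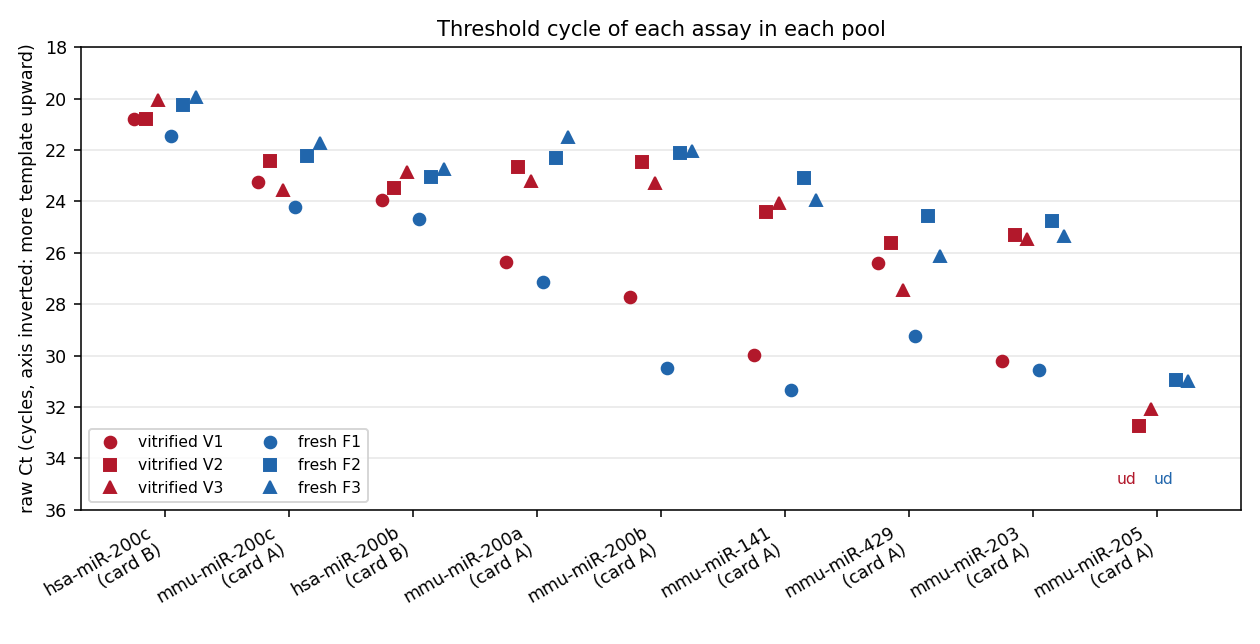
Raw Ct in cycles (inverted axis) of the 9 assays, ordered by mean ΔCt, in each pool, with red for vitrified and blue for fresh pools and the symbol for the pool number; ud marks an undetermined well, placed at an arbitrary height. The circles of V1 and F1 lie late for miR-200a, mmu-miR-200b, miR-141 and miR-203, and close to the other pools for miR-200c and for hsa-miR-200b.

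The order of the assays by level was set by the mean ΔCt over the determined pools. It was 3.40 ± 0.63 (SD, n = 6) for hsa-miR-200c, 5.82 ± 0.87 for mmu-miR-200c, 6.30 ± 0.79 for hsa-miR-200b, 6.78 ± 2.09 for mmu-miR-200a, 7.60 ± 3.36 for mmu-miR-200b, 9.06 ± 3.30 for mmu-miR-141, 9.48 ± 1.56 for mmu-miR-429, 9.85 ± 2.41 for mmu-miR-203 and 14.79 ± 0.72 (SD, n = 4) for mmu-miR-205. A ΔCt also carries the efficiency of each assay, so this is an order of assays and not of molecule numbers. Neighbours in the order were compared within pools with 2-sided exact sign-flip permutation tests. The neighbours were set by the same levels that were then compared. An adjusted p under 0.05 would have needed most of the 8 pairs to reach the smallest p, so it cannot decide on single pairs. Of the 8 neighbouring pairs, 2 had an unadjusted p of 0.031, the smallest that 6 pools allow, and 0 had a Benjamini-Hochberg adjusted p under 0.05. The first of these pairs was hsa-miR-200c ahead of mmu-miR-200c, by 2.41 ± 0.36 (SD, n = 6) cycles and in 6 of 6 pools (adjusted p = 0.125, exact test). The other was mmu-miR-200b ahead of mmu-miR-141, by 1.46 ± 0.65 (SD, n = 6) cycles and in 6 of 6 pools (adjusted p = 0.125, exact test). For the next pair, mmu-miR-200c ahead of hsa-miR-200b, the difference of 0.49 ± 0.40 cycles was seen in 5 of 6 pools. mmu-miR-203 and mmu-miR-205 differed by 6.48 ± 0.75 cycles in 4 of 4 pools, where the exact test cannot go below p = 0.125. The differences of the remaining 4 pairs were smaller than their SD between pools.

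Without V1 and F1, the middle of the order closed up. The mean ΔCt was then 5.52 ± 0.72 (SD, n = 4) for mmu-miR-200a, 5.57 ± 0.52 for mmu-miR-200b, 5.58 ± 0.75 for mmu-miR-200c and 5.93 ± 0.34 for hsa-miR-200b. The differences between neighbours among these 4 assays were smaller than their SD between pools. hsa-miR-200c stayed the earliest at 3.17 ± 0.32, and mmu-miR-203 at 8.32 ± 0.16 changed places with mmu-miR-429 at 9.03 ± 1.07.

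The central comparison of the study asks whether vitrification alters the miRNAs of the blastocyst. No assay of the miR-200 family, of miR-203 or of miR-205 passed the test of a difference between vitrified and fresh blastocysts. In a limma model over the 335 assays with at least 2 determined values in each group, 0 of the 9 had a Benjamini-Hochberg adjusted p under 0.05, against 0 of 335 (0%) over all assays tested. At an unadjusted p under 0.05 the counts were 0 of 9 and 1 of 335. An unmoderated equal-variance test also gave 0 adjusted calls, with 9 of 335 assays and 0 of the 9 at an unadjusted p under 0.05. Of the 9 log2 fold changes, which are vitrified minus fresh differences in −ΔCt, 7 were above 0 and 2 below. Their median was 0.32, beside −0.05 over all tested assays, of which 48.1% were above 0. These sets are unlike, since 8 of the 9 members but only 122 of the 335 assays were determined in all 6 pools. Over those 122 assays the median was 0.25 and 59.0% were above 0, beside a median of 0.34 over the 8 members, of which 7 were above 0.

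Among the assays named for miRNAs with the seed of miR-200b, the log2 fold change was 0.82 (standard error 2.53) for mmu-miR-200b, 0.36 (standard error 0.94) for hsa-miR-200b, 0.07 (standard error 0.98) for mmu-miR-200c, 0.30 (standard error 0.87) for hsa-miR-200c and 0.58 (standard error 1.34) for mmu-miR-429. All 5 values lay above 0 and each was smaller than its standard error. With the seed of miR-200a, it was −0.02 (standard error 1.70) for mmu-miR-200a and 0.41 (standard error 2.51) for mmu-miR-141. It was 0.32 (standard error 1.90) for mmu-miR-203. The adjusted p-value from limma was 0.998 for each of the 9 assays.

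The standard errors differ because the assays spread differently between pools. In vitrified blastocysts the ΔCt of hsa-miR-200c was 3.25 ± 0.23 (SD, n = 3), against 3.55 ± 0.93 (SD, n = 3) in the fresh group. In vitrified blastocysts the ΔCt of mmu-miR-200b was 7.19 ± 2.38 (SD, n = 3), against 8.01 ± 4.69 (SD, n = 3) in the fresh group. Over the 8 assays determined in all pools the 2-sided exact permutation test of the group means gave p-values between 0.7 and 1.0, where 3 pools against 3 cannot go below 0.1. The ΔCt values of the groups overlapped for all 8, and failed to overlap in 1.64% of the 122 miRNA assays determined in all 6 pools.

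mmu-miR-205 was the assay with the lowest log2 fold change in vitrified blastocysts. V2 and V3 had a ΔCt of 15.63 and 15.12, while F2 and F3 had 14.38 and 14.04, and the determined values of the groups did not overlap. The log2 fold change was −1.16 (standard error 1.14, adjusted p = 0.998 from limma), and the 2-sided exact permutation test gave p = 0.333, the smallest that 2 pools against 2 allow. With undetermined wells set to 40 cycles, or with a ceiling of 35 cycles, the log2 fold change was −0.53. Groups without overlap were found for 32.8% of the 131 assays that were determined in 2 pools of each group.

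The direction differed between the pairs of pools that carry the same number. Between V1 and F1, all 8 assays with a value were higher in V1, with a median difference in −ΔCt of 1.61, and 73.6% of the 129 assays with a value in both pools were higher in V1, with the same median of 1.61. Between V3 and F3, all 9 were lower in V3, with a median of −1.08, beside 32.9% of 353 assays higher in V3 and a median of −0.49. Between V2 and F2, 5 of the 9 were higher in V2, with a median of 0.15, beside 75.7% of 354 assays and a median of 0.60.

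The largest differences between V1 and F1 were those of mmu-miR-429, at 3.57, and of mmu-miR-200b, at 3.53. The largest in the opposite direction were those of mmu-miR-200c, at −1.79, and of mmu-miR-200a, at −1.72, both between V3 and F3. mmu-miR-203 was nearly level in the pools numbered 2 and 3, with differences of −0.04 and −0.09.

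In the pools numbered 2 and 3 alone, all 9 log2 fold changes were below 0, with a median of −0.53, where 50.6% of the 326 assays tested were below 0 and their median was −0.02. The values ran from −0.06 (standard error 0.56) for mmu-miR-203 to −1.16 (standard error 0.58) for mmu-miR-205. That of mmu-miR-200a was −0.78 (standard error 0.70), that of mmu-miR-429 −0.92 (standard error 0.91), and that of mmu-miR-200c −0.74 (standard error 0.73). Of the 9, 0 had an unadjusted p under 0.05 in limma, against 16 of 326, and the adjusted p-values lay between 0.867 and 0.964 (limma). The ΔCt values of the groups did not overlap for 2 of the 9, mmu-miR-141 and mmu-miR-205, beside 28.8% of the 326 assays. The direction of the family thus depended on single pools. Without F1 all 9 log2 fold changes were below 0, with a median of −1.16 beside −0.88 over all assays. Without V2 the median of the 8 tested members was −0.12 beside −0.75, with 3 above 0, and without V1 it was 0.45 beside 0.43, with 7 of 9 above 0.

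**Figure D2:**
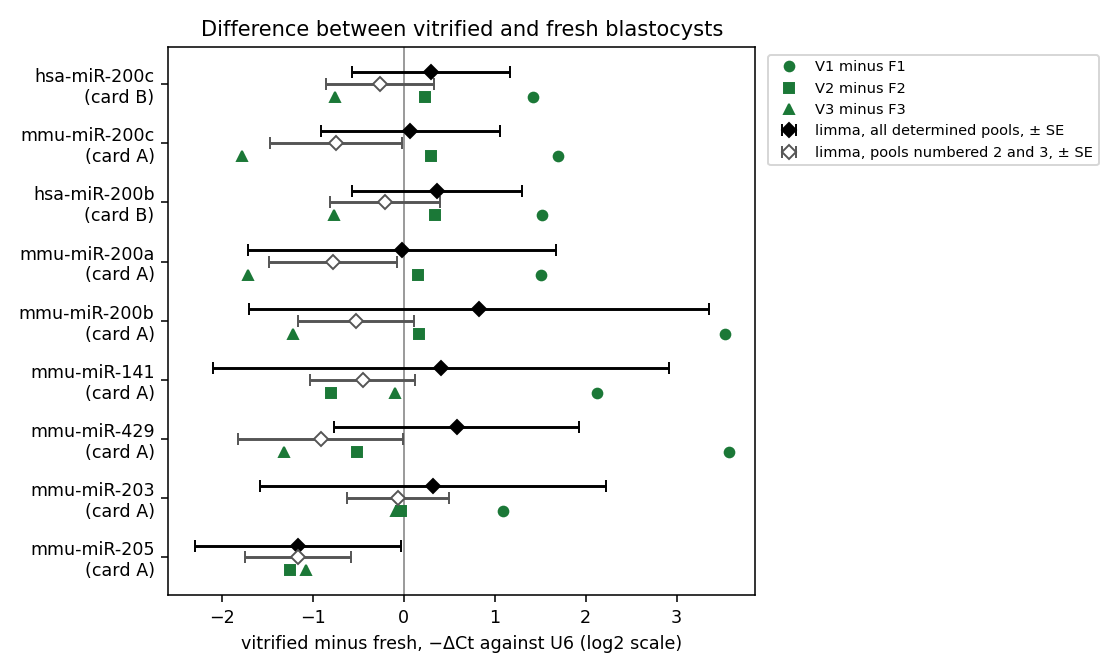
Difference in −ΔCt against U6, vitrified minus fresh, on the log2 scale for each assay: filled diamonds for limma over all determined pools, open diamonds for the pools numbered 2 and 3 (bars are ± 1 standard error), and green symbols for the single pairs of pools with the same number. V1 minus F1 lies above 0 for all 8 assays with a value, V3 minus F3 below 0 for all 9, and the open diamonds all lie below 0.

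The reference RNA also set the direction. With the mean of the other small RNA controls in place of U6, all 9 log2 fold changes were below 0, with a median of −1.46, and the median over all tested assays moved to −0.78. The mean of all miRNA assays of the card determined in every pool left 5 above 0 and 4 below, with a median of 0.03 beside 0.12 over all assays. With no reference, 3 were above 0 and 6 below, with a median of −0.015 beside −0.35. U6 itself crossed the threshold 0.545 cycles later in the pools numbered 1 than in the other pools on card A and 0.187 cycles later on card B. The small nucleolar RNA snoRNA202 was 8.69 cycles later there (card A) and 8.90 cycles later (card B).

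The delay of V1 and F1 differed widely between members of the family. It is the mean raw Ct of V1 and F1 minus that of V2, V3, F2 and F3. On card A it was 1.25 cycles for mmu-miR-200c, 1.88 for mmu-miR-429, 4.33 for mmu-miR-200a, 5.15 for mmu-miR-203, 6.62 for mmu-miR-200b and 6.78 for mmu-miR-141. The median over the 80 miRNA assays of card A determined in all pools was 5.26, and mmu-miR-200c ranked 10 and mmu-miR-141 ranked 56 of the 80 from the smallest delay. On card B it was 0.876 cycles for hsa-miR-200c and 1.30 for hsa-miR-200b, beside a median of 2.03 over 42 assays.

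Among the members on card A, the delay followed neither the seed groups nor the gene clusters. miR-200c and miR-141, whose genes are neighbours, differed most among the members on card A, at 1.25 and 6.78 cycles. On this card the delays within the seed group of miR-200b ran from 1.25 to 6.62 cycles, and within that of miR-200a from 4.33 to 6.78. The assays named for miR-200b alone differed, at 6.62 cycles on card A and 1.30 on card B. A difference between assays and one between miRNAs can therefore not be told apart here. For mmu-miR-429 the delay came from 1 pool, since F1 was 3.89 cycles later than F2 and F3, whereas V1 was earlier than V2 and V3, by 0.12 cycles.

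**Figure D3:**
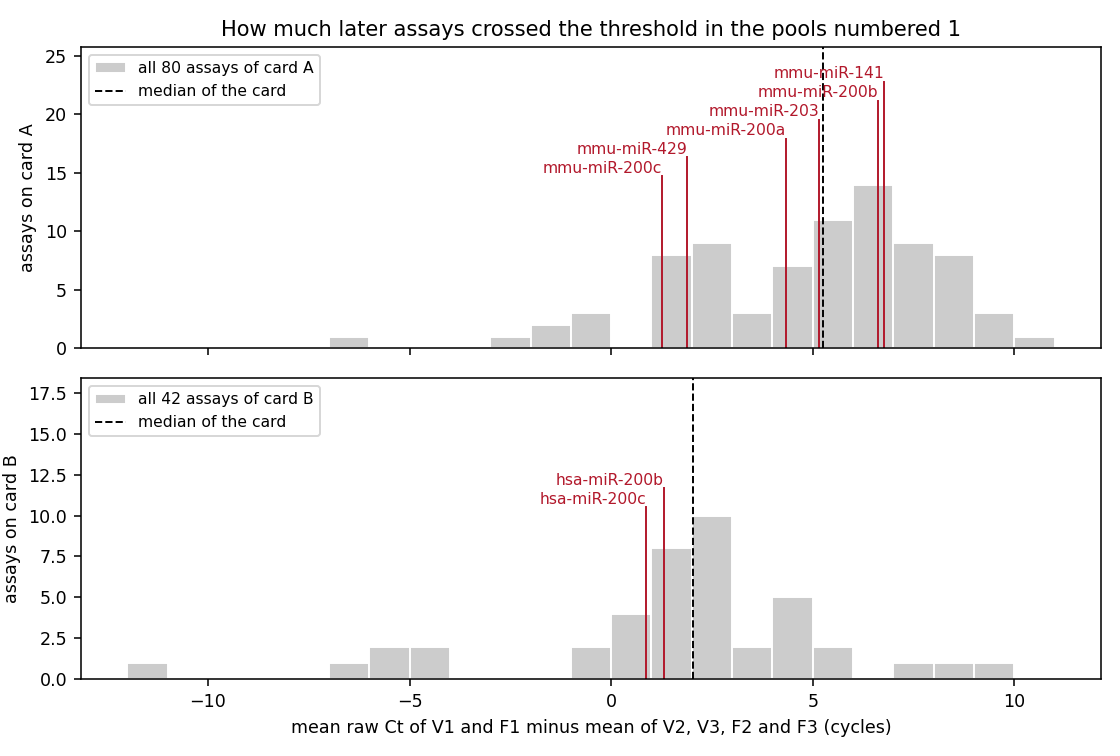
Number of miRNA assays determined in all 6 pools (80 on card A, above, and 42 on card B, below) by the delay of V1 and F1 in cycles, with dashed lines at the medians of 5.26 and 2.03 and red lines at the members. mmu-miR-200c and mmu-miR-429 lie at the early side of card A, mmu-miR-200b and mmu-miR-141 beyond its median, and both members on card B lie before the median of that card.

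miR-200b and miR-200c each had an assay on either card, with different assay numbers, which were compared within each pool, although the same name does not show that the assays detect the same molecule. For miR-200c the ΔCt on card A was later than on card B by 2.29 cycles in V1, 2.25 in V2, 3.05 in V3, and by 2.56 (F1), 2.32 (F2) and 2.02 (F3) cycles in the fresh pools. For miR-200c, V1 and F1 thus lay within the range of the other 4 pools, 2.02 to 3.05 cycles. Over those 4 pools the difference was 2.41 ± 0.45 (SD, n = 4).

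For miR-200b the difference between the cards was −0.38 cycles in V2, −0.02 in V3, −0.56 in F2 and −0.48 in F3, but 3.60 in V1 and 5.61 in F1. Over V2, V3, F2 and F3 it was −0.36 ± 0.24 (SD, n = 4) and over V1 and F1 4.604. On card B the ΔCt was 6.29 in V1 and 7.80 in F1, against 5.56 to 6.32 in the other pools, so that V1 lay among them and F1 later. On card A it was 9.88 in V1 and 13.41 in F1, against 5.08 to 6.30. The cause was not tested. The log2 fold changes of 0.82 (card A) and 0.36 (card B) rest on these differing values, whereas in the pools numbered 2 and 3 they were −0.53 and −0.21.

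**Figure D4:**
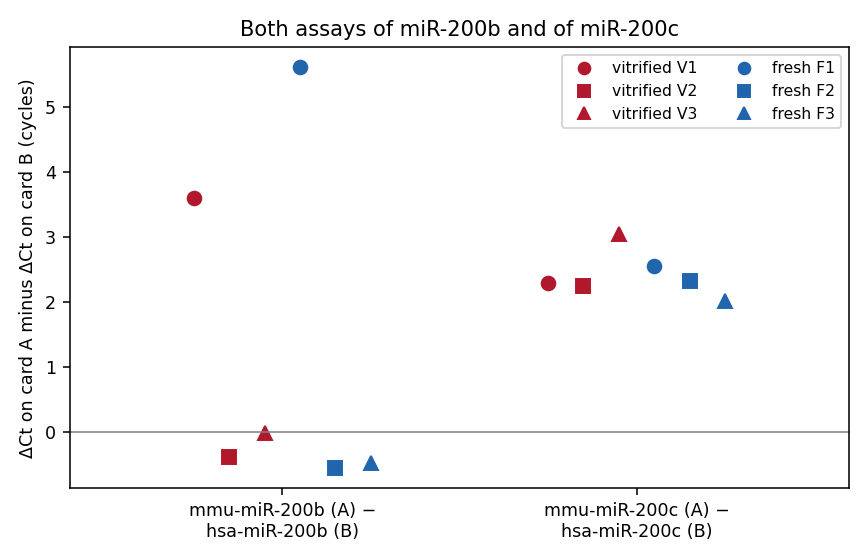
ΔCt on card A minus ΔCt on card B in cycles for miR-200b (left) and miR-200c (right) in each pool, with red for vitrified and blue for fresh pools and the symbol for the pool number. The 6 pools lie between 2.02 and 3.05 for miR-200c, while for miR-200b V1 at 3.60 and F1 at 5.61 lie apart from the other 4 pools.

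The opposite arms of the same hairpins were rarely determined. Of the 5 assays marked # for these hairpins, all on card B, those for miR-141 and miR-200c were undetermined in every pool. That for miR-203 was determined only in F3, at 35.55, and that for miR-200b only in V2, at 37.13. The exception was hsa-miR-200a#, whose mouse counterpart in RefSeq is mmu-miR-200a-5p.
mmu-miR-200a-5p: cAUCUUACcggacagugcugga

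The capitals again mark the seed, which in RefSeq is shared with mmu-miR-200b-5p alone. The raw Ct of hsa-miR-200a# was 30.77 in V1, 30.43 in V2, 29.10 in V3, and 30.56 (F1), 29.57 (F2) and 28.33 (F3) in the fresh pools. The vitrified and fresh values overlapped, and V1 and F1 were 1.31 cycles later than the other pools. Its log2 fold change was −0.32 (standard error 0.96, adjusted p = 0.998 from limma), and −0.76 in the pools numbered 2 and 3. The delay of this arm on card B was thus closer to those of hsa-miR-200b and hsa-miR-200c on that card than to the 4.33 cycles of mmu-miR-200a from the same hairpin on card A.

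Other lists of miRNAs were read for comparison, and none of their assays passed the test. For further epithelial miRNAs (miR-31, miR-34a, miR-96, miR-182, miR-183, miR-192, miR-194, miR-215 and miR-375), 8 of the 9 assays were tested, 5 log2 fold changes were above 0 and 3 below, and the median was 0.49. It was −0.04 in the pools numbered 2 and 3. The raw Ct of mmu-miR-31, the earliest of this list, was 26.93 in V1, 22.49 in V2, 23.41 in V3, and 31.14 (F1), 21.94 (F2) and 22.46 (F3) in the fresh pools, which placed V1 and F1 late as for mmu-miR-200b. mmu-miR-194 was undetermined in F1, had a raw Ct of 35.01 in V1 and lay between 23.67 and 24.02 in the other pools.

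The cards also picked up miRNAs known from other cell types that flushed embryos could carry. All 12 assays of the mesenchymal and smooth muscle list were determined in V2, V3, F2 and F3, and mmu-miR-145, the earliest of them, was at 20.90 in V2, 20.97 in V3, 21.30 in F2 and 18.52 in F3, but at 28.55 in V1 and 29.42 in F1. Of the 10 assays of the endothelial and blood list, 9 or 10 were determined in these 4 pools, and hsa-miR-223, a miRNA of myeloid cells, was between 20.74 and 22.09. The levels of each list relative to U6 were also summed and are given as log2. The mesenchymal list lay at −3.004 in V2, −3.41 in V3, −3.99 in F2 and −1.19 in F3, but at −9.72 in V1 and −10.39 in F1. The endothelial and blood list lay at −2.42 in V2, −2.73 in V3, −2.85 in F2 and −1.86 in F3. It was at −6.09 in V1 and −5.68 in F1. The 9 members lay at −2.19 in V2, −2.77 in V3, −2.37 in F2 and −1.79 in F3. They were at −2.69 in V1 and −4.19 in F1. In F3 the mesenchymal list thus lay above the members, and in V3 the endothelial and blood list lay slightly above them. The early embryo list lay lower, at −7.51 in V2, −5.32 in V3, −5.58 in F2 and −7.23 in F3, below the mesenchymal and the blood list in each of these pools. The list of further epithelial miRNAs was also below both in each, at −4.69 in V2, −5.32 in V3, −4.79 in F2 and −4.83 in F3. This list was at −8.72 in V1 and −12.95 in F1. A sum over assays also carries their efficiencies. That of the members counts miR-200b and miR-200c on both cards. Most of it came from hsa-miR-200c, with a ΔCt of 3.15 in V1 and 4.57 in F1, so it does not describe each member. mmu-miR-200a, mmu-miR-200b, mmu-miR-141 and mmu-miR-203 were 3.43 to 5.73 cycles later in V1 than in V2 and V3. For the other members determined in V1 this was −0.12 to 0.79 cycles. The part of the other cell types in the values of the miR-200 family was not tested. Over all 4 lists, 0 of the tested assays (7 early embryo, 8 epithelial, 12 mesenchymal, 9 endothelial and blood) had an adjusted or an unadjusted p under 0.05 in limma.

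The assays closest to the family in profile were sought among the 114 other assays determined in all pools. Each assay was set relative to the mean of the assays of its card determined in every pool and correlated over the 6 pools with the mean of the 8 members determined in all of them. The closest were mmu-miR-672 (r = 0.87), mmu-miR-375 (r = 0.84), mmu-miR-125a-5p (r = 0.83), mmu-miR-449a (r = 0.77) and mmu-miR-16 (r = 0.71), all on card A. The members themselves followed their mean unevenly, from r = −0.32 for mmu-miR-141 and −0.19 for mmu-miR-200b to 0.93 for hsa-miR-200c and 0.94 for mmu-miR-429. Each member is part of that mean, which raises its r, so these values cannot be set against those of the other assays. The points share the pools and the reference, V1 and F1 weigh heavily among 6 values, and these correlations are descriptions only, not computed without those pools.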

How the data were processed

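Total RNA from pools of blastocysts was reverse transcribed, pre-amplified and run by the authors on the A and B cards of the TaqMan Array for rodent microRNAs. The deposited values are raw Ct, a score on an inverted log2 scale without normalization, with 1 value per pool for 768 wells. The methods speak of triplicates, and whether this means the 3 pools is not given in the sources used here. An authors' fold change table was not used. Columns were assigned by the pool names in the labels.

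Wells that were undetermined or at 40 cycles or more were excluded, as the study's methods state. The mean of the 4 U6 wells of the card and pool was subtracted. An assay entered the comparison if each group had 2 or more determined values. Then limma 3.58.1 in R 4.3.3 was fitted, with Benjamini-Hochberg adjustment over 335 assays. The step was first tested on simulated data with large planted changes and the spread between V2 and V3 only. That checked the code and not the power in these pools, where V1 and F1 widen the spread. Exact permutation tests used scipy 1.17.1. The members and the comparison lists were chosen with earlier results of these data known. All members were named, with the opposite arms, the 5 assays most alike and the assays of lowest median Ct of each list.

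Deviations from the group means of same-numbered pools correlated across 122 assays at 0.80, 0.78 and 0.67, the latter 2 also carrying those of V1 and F1. The pool number was therefore tried as a block. The other alternatives were another reference, another Ct limit, filled wells, other filters, other variance models and pools left out. The precision is limited by the number of pools.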

Additional observations from a re-analysis of the deposited data

How the results depend on the processing

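Under all 17 alternatives, 0 assays and 0 of the members had an adjusted p under 0.05, and the lowest adjusted p of a member was 0.836 (limma, without F1). The unadjusted count over all assays ran from 0 to 16, and for the members it was 0 throughout. With the pool number as a replicate block, 0 of 330 assays passed and no call changed. The determined pools of each member were balanced over the pool numbers, so the block could not move the log2 fold changes of the members, whose median stayed at 0.32. Some alternatives could not change the direction of the members. The other variance model and the unmoderated test alter only the standard errors. No member had a Ct above 32.74, so a Ct limit of 35 removed none of their values. With 40 or a ceiling of 35 cycles for undetermined wells, only mmu-miR-205 could move, and it went from −1.16 to −0.53. With assays determined in all pools only, the values of the 8 members tested, without mmu-miR-205, were those of the main fit. The direction of members changed with the reference and the pools. With the other small RNA controls as reference, the log2 fold changes were −1.46 (mmu-miR-141), −1.04 (mmu-miR-200b), −1.79 (mmu-miR-200c), −1.54 (mmu-miR-203), −1.28 (mmu-miR-429), −1.08 (hsa-miR-200c) and −1.01 (hsa-miR-200b). With the global mean they were −0.30 (mmu-miR-200c) and −0.052 (mmu-miR-203). With no reference they were −0.015 (mmu-miR-141), −0.35 (mmu-miR-200c), −0.10 (mmu-miR-203) and −0.0017 (hsa-miR-200c). In the pools numbered 2 and 3 only they were −0.45 (mmu-miR-141), −0.53 (mmu-miR-200b), −0.74 (mmu-miR-200c), −0.062 (mmu-miR-203), −0.92 (mmu-miR-429), −0.26 (hsa-miR-200c) and −0.21 (hsa-miR-200b). The cause was not tested.

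When single pools were omitted, the log2 fold change ran from −2.10 to 2.05 (mmu-miR-141), from −1.66 to 1.10 (mmu-miR-200a), from −1.88 to 2.29 (mmu-miR-200b), from −0.57 to 0.61 (mmu-miR-200c), from −1.41 to 1.67 (mmu-miR-203), from −0.61 to 1.47 (mmu-miR-429), from −0.21 to 0.69 (hsa-miR-200c) and from −0.30 to 0.83 (hsa-miR-200b), and the median of the members from −1.16 to 0.99. mmu-miR-205 had no value without V2, V3, F2 or F3, and stayed at −1.16 without V1 or F1. In the order of levels, 0 of 8 neighbouring pairs had an adjusted p under 0.05 with U6, with no reference and in the pools numbered 2 and 3 only, where 4 pools cannot go below p = 0.125 (exact test). These counts cannot decide on single pairs, since even with 6 pools most pairs would have had to reach the smallest p.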
